A study of Mus musculus with 6 samples.

Results

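Glucose is carried into the cell by the GLUT transporters, phosphorylated by hexokinase and broken down to pyruvate by the enzymes of glycolysis, after which lactate dehydrogenase can make lactate that leaves the cell through monocarboxylate transporters. Pyruvate can instead enter mitochondria through the pyruvate carrier and be turned into acetyl-CoA by the pyruvate dehydrogenase (PDH) complex, which the PDH kinases switch off. The pentose phosphate pathway branches off after hexokinase and yields NADPH and ribose phosphate. Tumour cells, melanoma among them, are known for high glucose uptake and lactate output even with oxygen present.

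The 38 genes described here encode these transporters, enzymes and regulators, and were chosen by name from a table of 54838 genes. The table comes from RNA sequencing of 6 libraries of mRNA-enriched RNA from B16F10 cells, a mouse melanoma line. In 3 libraries the cells had received fenofibrate at 50 µM, and the other 3 came from control cells. Fenofibrate is a lipid-lowering drug whose acid form activates the nuclear receptor PPARα. The labels used here give neither the length of the treatment nor what the control cells received. The design text calls the samples biological triplicates, and nothing says that they came from separate cultures, so that p-values measure the spread between these samples, which may be technical. The cell line field of the labels changes from library to library, from B16F10 to B16F15. If that field is meant as written, line and treatment cannot be told apart. Coordinates below are those of the deposited table, which for the genes located here equal GENCODE M21 on GRCm38, although the submitters' processing notes name GRCm39.

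The libraries held 13540038 to 14710856 counts, so that 0 counts in a library would allow a level of up to 0.204 to 0.222 CPM (counts scaled by library total), a limit that covers counting error only. The 7 melanocyte markers summed to 6159 to 6581 FPKM (counts scaled by gene length and library total, as deposited) in control and 7255 to 7701 FPKM with fenofibrate. Markers of fibroblasts, endothelium, epithelium and T cells each summed to at most 1.002 FPKM in any library. The 5 macrophage markers summed to 1.03 to 1.67 FPKM in control and 1.81 to 3.13 FPKM with fenofibrate, with Adgre1 at 0 counts in all 6 libraries and Ptprc at 0 counts in the 3 controls and at 6, 10 and 8 counts with fenofibrate, and the part of these markers in the results was not tested. In bulk RNA, fewer cells of a type and less RNA per cell cannot be told apart. The 38 genes took 1.01% ± 0.0180 of all counts in control and 1.28% ± 0.00162 with fenofibrate (mean ± SD, n = 3 each).

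Most genes of glucose breakdown rose with fenofibrate. None of the 6 pentose phosphate genes was called higher, G6pdx missing the threshold narrowly (log2 fold change 0.20, edgeR adjusted p = 0.0510). With only 6 genes, that count is not far from the 19.5% called higher among all genes tested. All 38 genes passed the filter on low counts. Of these, 24 rose, 3 fell and 11 were not called (edgeR's quasi-likelihood test, Benjamini-Hochberg adjusted p of 0.05 over 13629 genes). Among all genes tested 39.1% were called, 19.5% higher and 19.5% lower. The share of the 38 genes called higher was 63.2%, and the share called lower was 7.89%. Their median log2 fold change was 0.34, a fold of 1.27, against -0.00 over all genes tested. A rise of 1.5-fold or more was called in 10 of them, against 7.18% of all genes tested. With libraries scaled by their totals alone the split was 21 higher and 4 lower, and 39.9% of the calls over all genes were then higher, against 50.0% with TMM scaling. On normalised CPM every fenofibrate library lay above every control for 28 of the genes and below every control for 4, and the groups overlapped for 6. Groups that did not overlap made up 53.3% of all genes tested, 26.4% above and 26.9% below the controls.

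By branch, 14 of 17 genes of glucose transport and glycolysis rose and 2 fell. All 4 genes of lactate formation and export rose, as did 4 of 6 genes of regulatory kinases and 2 of 5 genes of mitochondrial pyruvate entry. None of the 6 pentose phosphate genes was called higher and 1 fell. Among all genes tested 19.5% were called higher and 19.5% lower. With so few genes, the pentose phosphate counts lie near those shares. The median log2 fold change was 0.36 for transport and glycolysis, 0.48 for lactate, 0.50 for the regulators, 0.16 for pyruvate entry and -0.09 for the pentose phosphate genes.

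**Figure D1:**
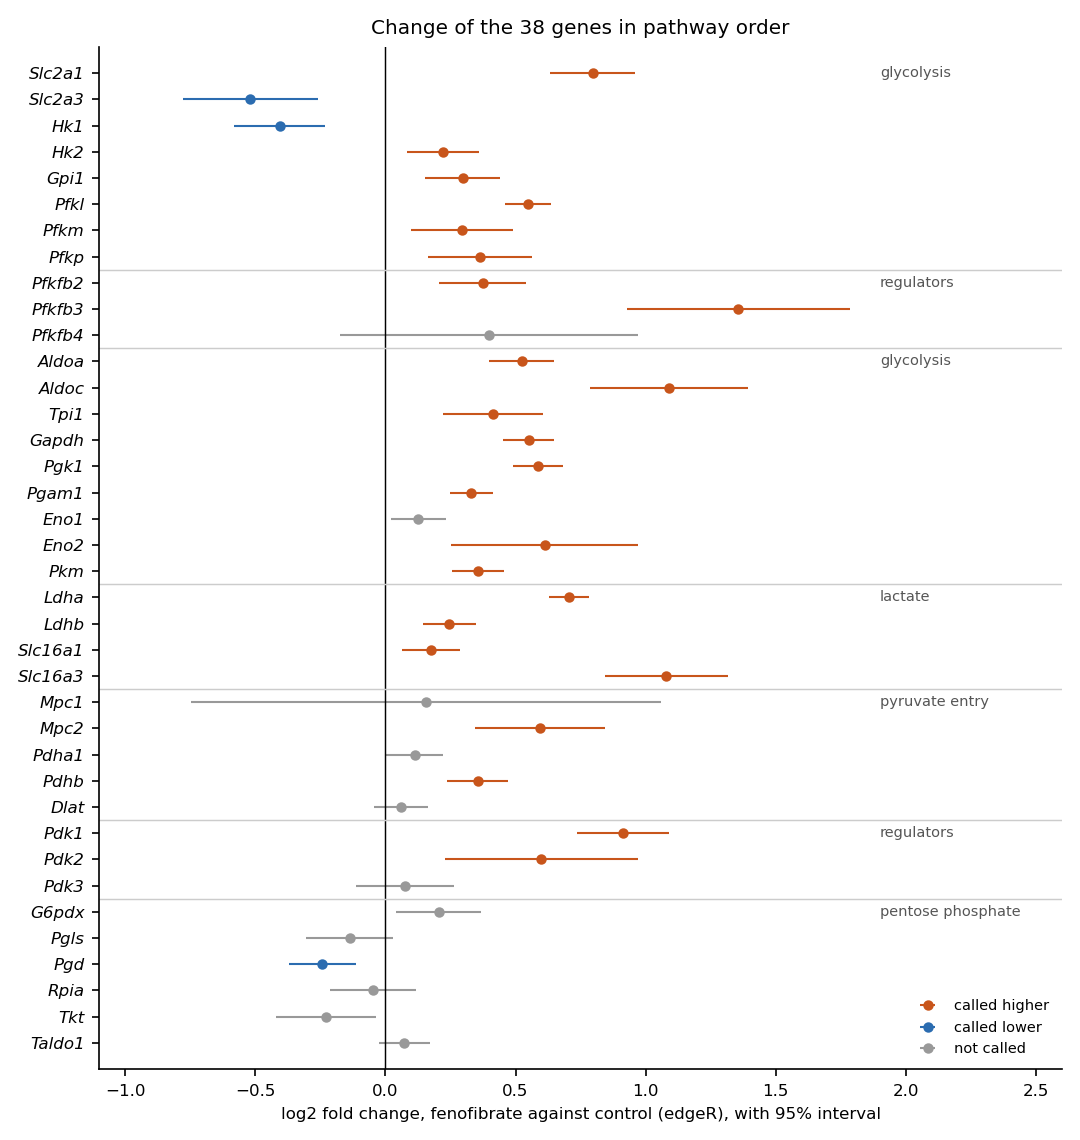
Log2 fold change of the 38 genes, fenofibrate against control, in pathway order, with bars for the 95% interval of edgeR's test (n = 3 libraries each) and colours for genes called higher, called lower and not called. Most glycolytic and lactate genes lie to the right of 0, and the pentose phosphate genes lie close to it.

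**Figure D2:**
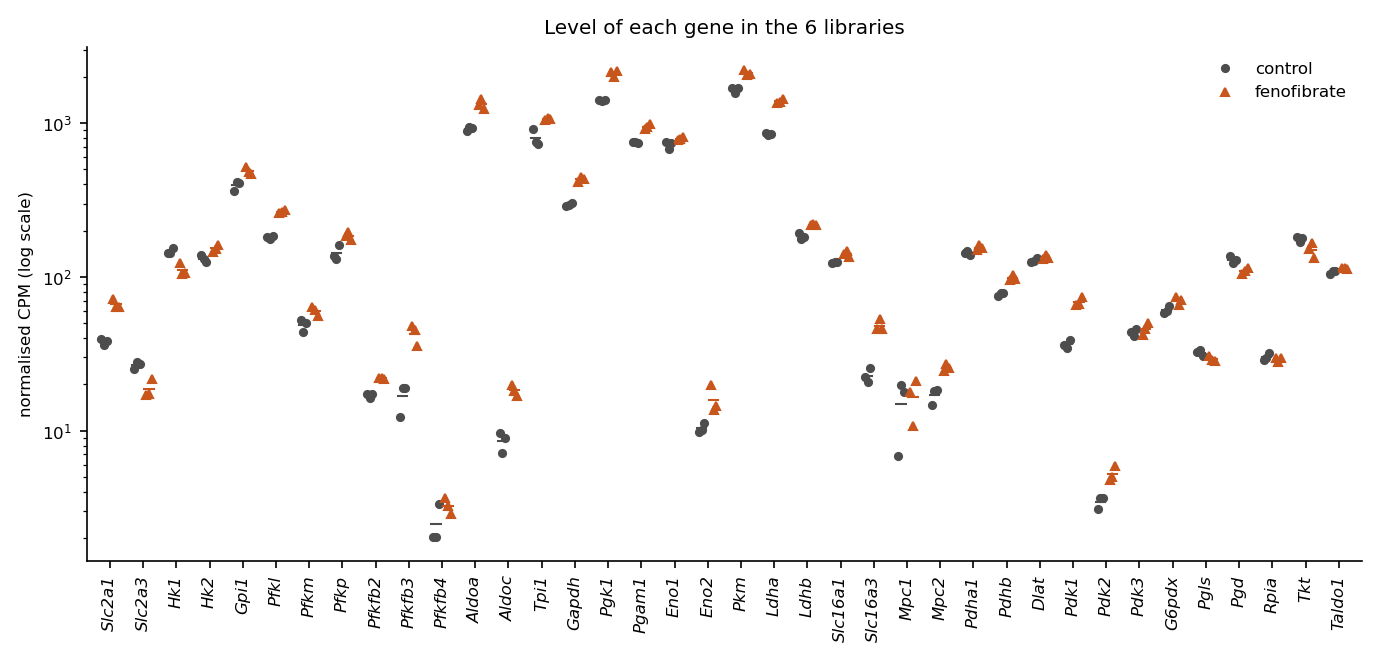
Level of each gene in normalised CPM (log scale) in the 3 control and the 3 fenofibrate libraries. The groups lie apart for most genes, and the libraries of Mpc1 scatter within both groups.

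The 2 glucose transporter genes moved in opposite directions. Slc2a1, which encodes the widely expressed transporter GLUT1 (ENSMUSG00000028645, chromosome 4, 119108711 to 119137983, plus strand), was counted 548, 521 and 531 times in control and 947, 895 and 917 times with fenofibrate. Every treated library exceeded every control, and the gene rose 1.74-fold (log2 fold change 0.80 ± 0.07 SE, adjusted p = 0.000169). Slc2a3, which encodes the high-affinity transporter GLUT3, was counted 347, 402 and 376 times in control and 227, 243 and 312 times with fenofibrate. Its groups did not overlap either, and it fell by 0.52 ± 0.11 on the log2 scale (1.43-fold lower, adjusted p = 0.00847). Per length, Slc2a1 was the more abundant of the pair in every library. Its share of the summed FPKM of both went from 73.9% ± 1.91 to 87.5% ± 1.96 (mean ± SD, n = 3 each), and the ratio of Slc2a3 to Slc2a1 was 2.50-fold lower.

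This ratio was 1 of 12 ratios of paralogs, each tested by a 2-sided exact permutation test over the 6 libraries. With 3 libraries against 3 the smallest p it allows is 0.1, so that no pair can pass 0.05. In 11 of the 12 pairs the groups did not overlap, each with an exact p of 0.1 (0.109 after adjustment over the pairs). Of all single genes tested, 53.3% had groups that did not overlap. The share among ratios of other gene pairs was not computed, so whether 11 of 12 is unusual is not known. The exception was Mpc2 to Mpc1 (exact permutation p = 0.5).

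The hexokinases, which trap glucose as glucose 6-phosphate, also split. Hk1 (ENSMUSG00000037012, chromosome 10, 62268855 to 62379908, minus strand) was counted 1998, 2058 and 2134 times in control and 1644, 1465 and 1525 times with fenofibrate. All treated values lay below all controls, and it fell by 0.41 ± 0.08 on the log2 scale (1.33-fold lower, adjusted p = 0.00440). Hk2, the isoform often raised in tumours, was counted 1937, 1864 and 1726 times in control and 1925, 2149 and 2338 times with fenofibrate. Its raw counts overlap by a little, its normalised CPM did not, and it rose 1.17-fold (log2 fold change 0.22 ± 0.06, adjusted p = 0.0223). That call was lost in 8 of 14 alternative settings (adjusted p 0.0505 to 0.0749), among them leaving out control replicate 2 or 3 and leaving out fenofibrate replicate 2 or 3. The ratio of Hk2 to Hk1 in FPKM was 1.75, 1.64 and 1.46 in control and 2.11, 2.65 and 2.77 with fenofibrate, 1.55-fold higher. The summed FPKM of both was 31.1 to 32.6 in control and 30.0 to 31.5 with fenofibrate, ranges that overlap.

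**Figure D3:**
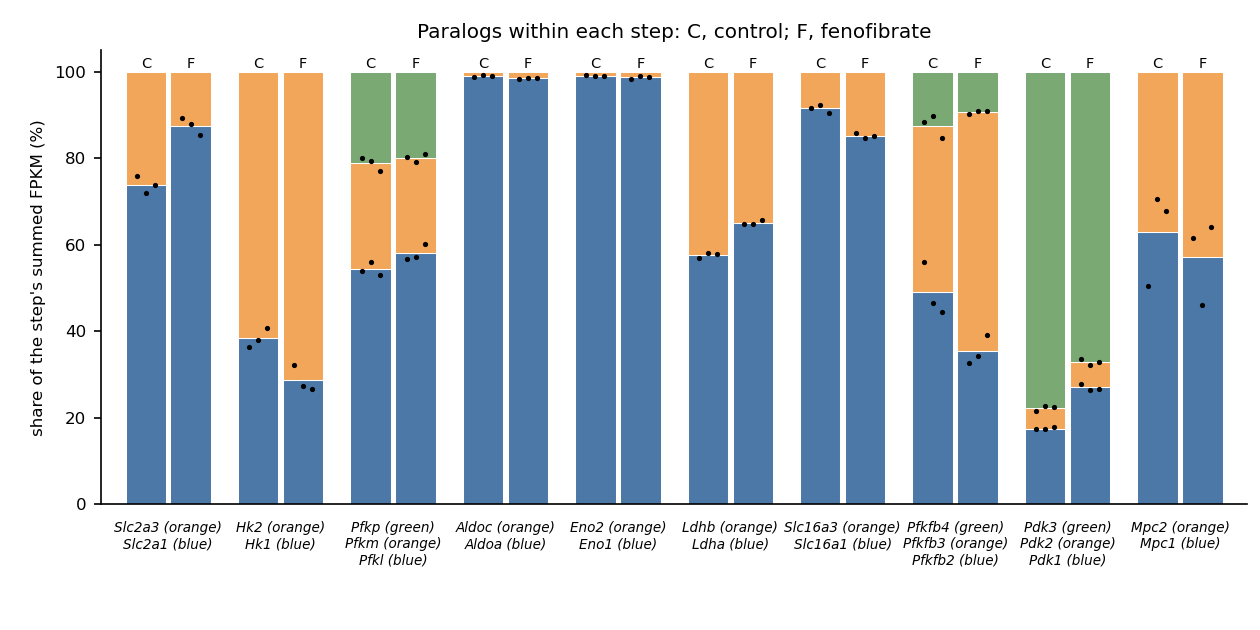
Share of each paralog in the summed FPKM of its step (%), as stacked bars of group means for control (C) and fenofibrate (F) with dots for the 3 libraries at each boundary. Slc2a1, Hk2, Ldha, Slc16a3, Pfkfb3 and Pdk1 take a larger part of their step with fenofibrate, while Aldoa and Eno1 hold 98.4% or more of theirs in every library.

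Gpi1, which makes fructose 6-phosphate, had 5051 to 5971 counts in control and 6702 to 6840 with fenofibrate, and rose 1.23-fold (adjusted p = 0.00747). Phosphofructokinase, the committing step of glycolysis, is built from the products of 3 genes, and all 3 rose. Pfkl, the liver-type subunit (ENSMUSG00000020277, chromosome 10, 77986947 to 78010083, minus strand), was counted 2543, 2539 and 2560 times in control and 3452, 3755 and 3916 times with fenofibrate. The control counts were nearly equal, and the rise was 1.46-fold (log2 fold change 0.55 ± 0.04, adjusted p = 6.24e-05). Pfkp, the platelet-type subunit, had 1889, 1882 and 2239 counts in control and 2432, 2760 and 2506 with fenofibrate (1.29-fold, adjusted p = 0.0124). Pfkm, the muscle-type subunit, had 727, 631 and 690 counts in control and 843, 854 and 800 with fenofibrate (1.23-fold, adjusted p = 0.0266). The treated libraries lay above the controls for both, but the call of Pfkm was lost in 8 of 14 alternative settings (adjusted p 0.0527 to 0.0828), among them leaving out control replicate 2 or 3 and leaving out fenofibrate replicate 1 or 2. The share of Pfkl in the FPKM of the step went from 54.3% ± 1.52 to 58.0% ± 1.85.

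The PFKFB enzymes make and remove fructose 2,6-bisphosphate, which activates phosphofructokinase, and PFKFB3 is the isoform most biased toward making it. Pfkfb3 (ENSMUSG00000026773, chromosome 2, 11471433 to 11554077, minus strand) was counted 169, 270 and 263 times in control and 631, 636 and 514 times with fenofibrate. Control replicate 1 was the lowest library, and the lowest treated count was above the highest control. At 2.56-fold (log2 fold change 1.36 ± 0.18, 95% interval 0.93 to 1.79, adjusted p = 0.00113), its fitted change was the largest among the 38 genes. Pfkfb2 had 239, 235 and 237 counts in control and 290, 312 and 314 with fenofibrate (1.3-fold, adjusted p = 0.00524). Pfkfb4 had 28, 29 and 46 counts in control and 48, 46 and 41 with fenofibrate, groups that overlap (log2 fold change 0.40, 95% interval -0.17 to 0.97, adjusted p = 0.236). Pfkfb4 was also the scarcest of all the genes per length, at 0.290 ± 0.0884 FPKM in control (mean ± SD, n = 3).

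Aldolase splits fructose 1,6-bisphosphate, and nearly all its RNA came from Aldoa, at 99.03% ± 0.168 of the step's FPKM in control. Aldoa (ENSMUSG00000030695, chromosome 7, 126795234 to 126800751, minus strand) was counted 12371, 13634 and 12767 times in control and 17310, 20164 and 17945 times with fenofibrate. The groups lay well apart, and it rose 1.44-fold (log2 fold change 0.52 ± 0.05, adjusted p = 0.000310). Aldoc, the brain-type form, was counted 133, 103 and 124 times in control and 263, 257 and 241 times with fenofibrate, and rose 2.13-fold (log2 fold change 1.09 ± 0.13, adjusted p = 0.000639). The ratio of Aldoc to Aldoa was 1.49-fold higher.

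After aldolase, every glycolytic step with a single gene rose. Tpi1, which interconverts the triose phosphates, had 10038 to 12784 counts in control and 13942 to 15426 with fenofibrate (1.33-fold, adjusted p = 0.00620). Gapdh, the NADH-forming dehydrogenase, had 4009 to 4187 counts in control and 5466 to 6301 with fenofibrate (1.46-fold, adjusted p = 8.69e-05). Pgk1, which makes the first ATP of the pathway (ENSMUSG00000062070, chromosome X, 106187100 to 106203699, plus strand), was counted 19603, 20115 and 19484 times in control and 28687, 28140 and 31590 times with fenofibrate. The control libraries lay close together, and Pgk1 rose 1.5-fold (log2 fold change 0.59 ± 0.04, adjusted p = 5.96e-05). Per length Pgk1 was the most abundant of the genes, at 470 ± 2.13 FPKM in control, followed by Pgam1 at 417 ± 5.50 FPKM and Pkm at 228 ± 9.43 FPKM (mean ± SD, n = 3). Pgam1, the phosphoglycerate mutase gene, had 10236 to 10811 counts in control and 12072 to 14134 with fenofibrate, and rose 1.26-fold (adjusted p = 0.000407). Pkm, the pyruvate kinase gene, had 22549 to 23480 counts in control and 28976 to 30010 with fenofibrate, and rose 1.28-fold (adjusted p = 0.000684), and counts per gene do not separate its PKM1 and PKM2 splice forms.

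The enolase genes were less uniform. Eno1, which supplied 99.1% ± 0.0662 of the step's FPKM in control, was counted 10488, 9748 and 10294 times in control and 10369, 11165 and 11629 times with fenofibrate. The raw counts overlap, although the normalised CPM did not. Its log2 fold change of 0.13 ± 0.05 (95% interval 0.02 to 0.23) had an adjusted p of 0.0617. Eno2, the neuronal form, was counted 137, 145 and 155 times in control and 261, 192 and 209 times with fenofibrate, and rose 1.53-fold (log2 fold change 0.61 ± 0.15, adjusted p = 0.0165). Without control replicate 1 its adjusted p was 0.0552, and without control replicate 2 it was 0.0527.

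Several of these genes have copies elsewhere in the genome that are nearly identical in sequence, among which the deposited counts are divided. Near-identical here means at least 95% identity over 150 bases or more and over at least 50% of the copy's transcript, by alignment of GENCODE M21 transcripts. Gapdh had 91 such copies, which took 56.2% of the counts of gene plus copies. The processed pseudogene Gm5559, 99.9% identical over 1002 aligned bases, held 34316 counts over the 6 libraries against 30383 for Gapdh itself. The listed level of Gapdh, 34.7 ± 0.712 FPKM in control, leaves those counts out. The copies of Eno1 took 40.3%, with 22470 counts on Eno1b alone. Copies took 10.0% for Gpi1, 9.76% for Pdhb, 7.96% for Pkm, 6.75% for Pgam1 and 2.87% for Ldhb.

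**Figure D4:**
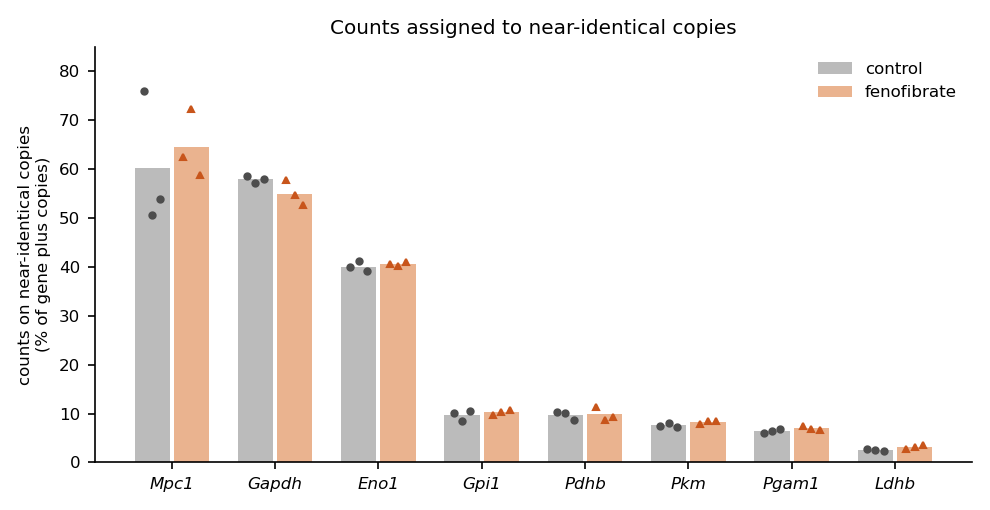
Counts on near-identical copies as a percentage of the counts on gene plus copies, as bars of group means with points for the 3 control (circles) and 3 fenofibrate (triangles) libraries. Mpc1 and Gapdh have the highest percentages, and the libraries of Mpc1 range from 50.6% to 76.0%.

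With the copies' counts added to each gene before the test, an alternative chosen after the data were seen, Gapdh had a log2 fold change of 0.46 in place of 0.55 (edgeR adjusted p = 0.000167). Eno1 had 0.14 and passed the test (adjusted p = 0.0243). Gpi1 had 0.31, Pdhb 0.36, Pkm 0.37 and Pgam1 0.34, all still called higher. Exons shared with other genes are a further limit. Of the genes that share 5% or more of their exon bases, the share on the same strand was 20.6% for Pgls, 17.4% for Pfkfb2, 15.3% for Pkm and 10.2% for Pfkm. On the opposite strand it was 23.1% for Mpc1, 16.1% for Pdha1, 13.6% for G6pdx, 11.5% for Gpi1 and 5.58% for Pfkp, and no strand setting is given in the sources used here.

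Lactate dehydrogenase turns pyruvate into lactate and back. Ldha, the gene of the muscle-type subunit (ENSMUSG00000063229, chromosome 7, 46841475 to 46855627, plus strand), was counted 12068, 11980 and 11813 times in control and 18026, 19549 and 20566 times with fenofibrate. It rose 1.63-fold (log2 fold change 0.70 ± 0.03, adjusted p = 1.35e-05), with the smallest adjusted p among the 38 genes. Ldhb, the heart-type subunit, was counted 2686, 2529 and 2519 times in control and 2865, 3114 and 3148 times with fenofibrate (1.19-fold, adjusted p = 0.00398). Both rose, and the share of Ldha in the step's FPKM went from 57.6% ± 0.687 to 65.1% ± 0.508. The ratio of Ldhb to Ldha was 1.37-fold lower.

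Lactate crosses the cell membrane through MCT1, encoded by Slc16a1, and MCT4, encoded by Slc16a3 and found mainly in cells that export lactate. Slc16a3 (ENSMUSG00000025161, chromosome 11, 120948480 to 120960868, plus strand) was counted 309, 295 and 352 times in control and 605, 749 and 659 times with fenofibrate. The groups lay far apart, and the gene rose 2.11-fold (log2 fold change 1.08 ± 0.10, adjusted p = 0.000223). Slc16a1 was counted 1722, 1805 and 1720 times in control and 1876, 2088 and 1929 times with fenofibrate, a 1.13-fold rise (adjusted p = 0.0223). The call of Slc16a1 was lost in 8 of 14 alternative settings (adjusted p 0.0560 to 0.0832), among them leaving out control replicate 1, 2 or 3 and leaving out fenofibrate replicate 1 or 2. Slc16a1 remained the more abundant per length, and the share of Slc16a3 in the FPKM of both went from 8.45% ± 0.879 to 14.7% ± 0.667. Bsg, from the wider list of sugar pathway genes, encodes basigin, the chaperone of both transporters, and rose 1.49-fold (adjusted p = 2.68e-05). Slc16a7, a further monocarboxylate transporter gene of that list, fell. It was counted 391, 444 and 366 times in control and 253, 286 and 313 times with fenofibrate (1.40-fold lower, edgeR adjusted p = 0.00433).

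The promoters of 4 genes that rose and of Hk1, which fell, are shown to set the promoters of genes that moved in opposite directions side by side. These picked promoters do not stand for all genes that rose or fell. The sequences are from RefSeq (GRCm38.p6), up to 250 bases before the listed start nearest the 5′ end of the deposited gene, 5′ to 3′ on the gene's strand and outside annotated exons. The start lies 4329 bases inside the deposited gene for Ldha and 587 for Slc16a3. Capitals mark ACGTG and GCGTG on either strand, letters found at the core of sites for hypoxia-inducible factors. CACGTG, the core of sites for MYC and related factors, overlaps ACGTG. The windows are chrX:106186850-106187099 (plus strand) for Pgk1, chr7:46845554-46845803 (plus strand) for Ldha, chr11:120948817-120949052 (plus strand) for Slc16a3, chr2:71872974-71873223 (plus strand) for Pdk1 and chr10:62379909-62380158 (minus strand) for Hk1.
Pgk1: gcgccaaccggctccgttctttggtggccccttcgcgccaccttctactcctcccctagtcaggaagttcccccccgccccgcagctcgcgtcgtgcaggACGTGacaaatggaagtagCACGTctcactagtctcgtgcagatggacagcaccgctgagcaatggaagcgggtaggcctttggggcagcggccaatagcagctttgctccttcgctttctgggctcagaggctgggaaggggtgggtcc
Ldha: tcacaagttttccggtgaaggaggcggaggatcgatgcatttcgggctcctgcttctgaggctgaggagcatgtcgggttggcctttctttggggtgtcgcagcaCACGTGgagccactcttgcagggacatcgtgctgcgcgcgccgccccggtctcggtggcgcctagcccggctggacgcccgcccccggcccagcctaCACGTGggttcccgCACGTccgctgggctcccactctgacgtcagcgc
Slc16a3: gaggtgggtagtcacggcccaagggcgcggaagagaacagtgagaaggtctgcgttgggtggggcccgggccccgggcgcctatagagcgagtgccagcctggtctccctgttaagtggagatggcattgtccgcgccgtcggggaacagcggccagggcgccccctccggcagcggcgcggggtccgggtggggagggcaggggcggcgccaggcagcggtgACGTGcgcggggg
Pdk1: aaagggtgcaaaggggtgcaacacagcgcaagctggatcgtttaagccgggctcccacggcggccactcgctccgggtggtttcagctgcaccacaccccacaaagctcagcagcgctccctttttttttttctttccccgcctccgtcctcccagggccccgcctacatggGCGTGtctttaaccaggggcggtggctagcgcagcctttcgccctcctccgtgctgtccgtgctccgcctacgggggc
Hk1: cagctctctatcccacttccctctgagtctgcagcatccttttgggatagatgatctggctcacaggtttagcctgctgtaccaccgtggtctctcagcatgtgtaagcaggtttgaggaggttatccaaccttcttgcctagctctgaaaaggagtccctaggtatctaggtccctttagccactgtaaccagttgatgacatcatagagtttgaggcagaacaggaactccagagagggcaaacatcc

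The Ldha window holds capitals at 3 places and CACGTG 2 times, the Pgk1 window holds capitals at 2 places, the Pdk1 window at 1 and the Hk1 window at 0. RefSeq lists 2 starts each for Hk1, Ldha and Pdk1, and the window of the other start is not shown or described. The Hk1 window used has a GC content of 49.6%. Its lack of capitals therefore describes that window only. Of the 38 genes 37 had a RefSeq window of 250 bases, and 30 of these held ACGTG or GCGTG on either strand (81.1%), against 38.6% of all 32851 windows. The median GC content of these windows was 61.6% against 52.4% of all windows. Among genes that rose, 19 of 24 windows held either motif, among genes that fell 1 of 2 (Pgd but not Hk1), and among genes not called 10 of 11. Gpi1, Aldoa, Tpi1, Eno2 and Pkm, which rose, had windows with neither motif. All these counts cover the full 250 bases, annotated exon bases included, unlike the printed stretches. For Pfkfb3, Pfkfb4, Aldoc, Mpc2, G6pdx, Pgd and Tkt each match lay within annotated exons. CACGTG was in 4 of the members' windows and in 6.02% of all windows. A match describes letters only, and binding was not measured.

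The pyruvate carrier and the PDH complex changed less uniformly. Mpc2, a carrier subunit, was counted 203, 258 and 255 times in control and 322, 385 and 368 times with fenofibrate (1.51-fold, adjusted p = 0.00401). Mpc1, its partner, was counted 95, 284 and 246 times in control and 238, 151 and 302 times with fenofibrate. These groups overlap, and the 95% interval of the log2 fold change was -0.75 to 1.06 (adjusted p = 0.778). The pseudogene Mpc1-ps, identical to Mpc1 over 261 aligned bases, had 301, 291 and 288 counts in control and 395, 393 and 433 with fenofibrate. Gene plus copies had a log2 fold change of 0.36 (edgeR adjusted p = 0.0999).

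Pdhb, a subunit of the first enzyme of the PDH complex, had 1050 to 1119 counts in control and 1266 to 1456 with fenofibrate, and rose 1.28-fold (adjusted p = 0.00139). Pdha1, the subunit that the PDH kinases phosphorylate, had 1920 to 2124 counts in control and 1975 to 2278 with fenofibrate (log2 fold change 0.11, 95% interval 0.00 to 0.22, adjusted p = 0.0939). Dlat, the acetyltransferase of the complex, had 1748 to 1818 counts in control and 1720 to 1954 with fenofibrate (log2 fold change 0.06, 95% interval -0.04 to 0.17, adjusted p = 0.309).

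Among the PDH kinase genes, Pdk1 (ENSMUSG00000006494, chromosome 2, 71873224 to 71903858, plus strand) was counted 497, 493 and 540 times in control and 868, 939 and 1064 times with fenofibrate. Every treated library was above every control, and it rose 1.88-fold (log2 fold change 0.91 ± 0.08, adjusted p = 0.000135). Pdk2 was counted 43, 52 and 50 times in control and 63, 71 and 85 times with fenofibrate, a 1.52-fold rise (adjusted p = 0.0208). That call was lost with DESeq2 (adjusted p = 0.0869), without control replicate 1 (0.0690) and without fenofibrate replicate 3 (0.0658). Pdk3, the most abundant of these kinase genes per length, was counted 606, 591 and 635 times in control and 556, 647 and 721 times with fenofibrate, groups that overlap (log2 fold change 0.07, 95% interval -0.11 to 0.26, adjusted p = 0.5). The share of Pdk1 in the FPKM of the 3 kinase genes went from 17.5% ± 0.238 to 27.0% ± 0.750, and that of Pdk3 went from 77.8% ± 0.553 to 67.1% ± 0.730. Pdp2, a PDH phosphatase gene of the wider list whose product reverses the kinases' work, was counted 340, 312 and 326 times in control and 127, 142 and 155 times with fenofibrate, 2.30-fold lower (adjusted p = 8.92e-05). The other phosphatase gene of that list, Pdp1, went the opposite way, 1.36-fold higher (edgeR adjusted p = 0.0496). Pdpr, a phosphatase regulatory subunit gene, was not called (1.13-fold, edgeR adjusted p = 0.132).

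The pentose phosphate genes showed small differences in both directions. G6pdx, the gene of the first and rate-limiting enzyme, had 814, 856 and 890 counts in control and 987, 921 and 1022 with fenofibrate, with a log2 fold change of 0.20 ± 0.07 (adjusted p = 0.0510). Every treated library lay above every control. Without control replicate 3 its adjusted p was 0.0441, and without fenofibrate replicate 2 it was 0.0325. Pgd, the second NADPH-forming enzyme, was counted 1897, 1774 and 1766 times in control and 1391, 1542 and 1645 times with fenofibrate. It fell by 0.24 ± 0.06 on the log2 scale (1.18-fold lower, adjusted p = 0.0111). Pgls, the lactonase between them, had 454, 478 and 420 counts in control and 408, 405 and 408 with fenofibrate (log2 fold change -0.14, adjusted p = 0.170).

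In the non-oxidative arm, which rearranges sugar phosphates, Tkt, the transketolase gene, was counted 2512, 2415 and 2470 times in control and 2007, 2362 and 1908 times with fenofibrate. Its log2 fold change was -0.23 ± 0.08 (adjusted p = 0.0611), and it passed the test as lower in 6 of 14 alternative settings (adjusted p 0.0167 to 0.0449), among them leaving out fenofibrate replicate 2. Taldo1, the transaldolase gene, had 1453, 1561 and 1509 counts in control and 1509, 1604 and 1615 with fenofibrate (log2 fold change 0.07, 95% interval -0.03 to 0.17, adjusted p = 0.212). Rpia, the ribose phosphate isomerase gene, had 401, 426 and 440 counts in control and 394, 396 and 429 with fenofibrate (log2 fold change -0.05, 95% interval -0.21 to 0.12, adjusted p = 0.630).

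Set against glycolysis in the same library, the pentose phosphate genes took a smaller part with fenofibrate. Their summed FPKM over that of the glycolytic enzyme genes was 0.0584, 0.0596 and 0.0608 in control and 0.0439, 0.0442 and 0.0423 with fenofibrate. The groups did not overlap, and the ratio was 1.37-fold lower (exact permutation p = 0.1, the smallest the design allows, and 0.2 after adjustment over 3 such ratios, which were chosen after values were seen). A ratio within a library shows unequal change and not which side moved. The PDH kinases over the PDH complex were 0.251 to 0.285 in control and 0.283 to 0.326 with fenofibrate, and the oxidative pentose phosphate genes over both hexokinases were 1.247 to 1.29 and 1.21 to 1.26. Both of these overlap between groups (exact permutation p = 0.2 each).

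**Figure D5:**
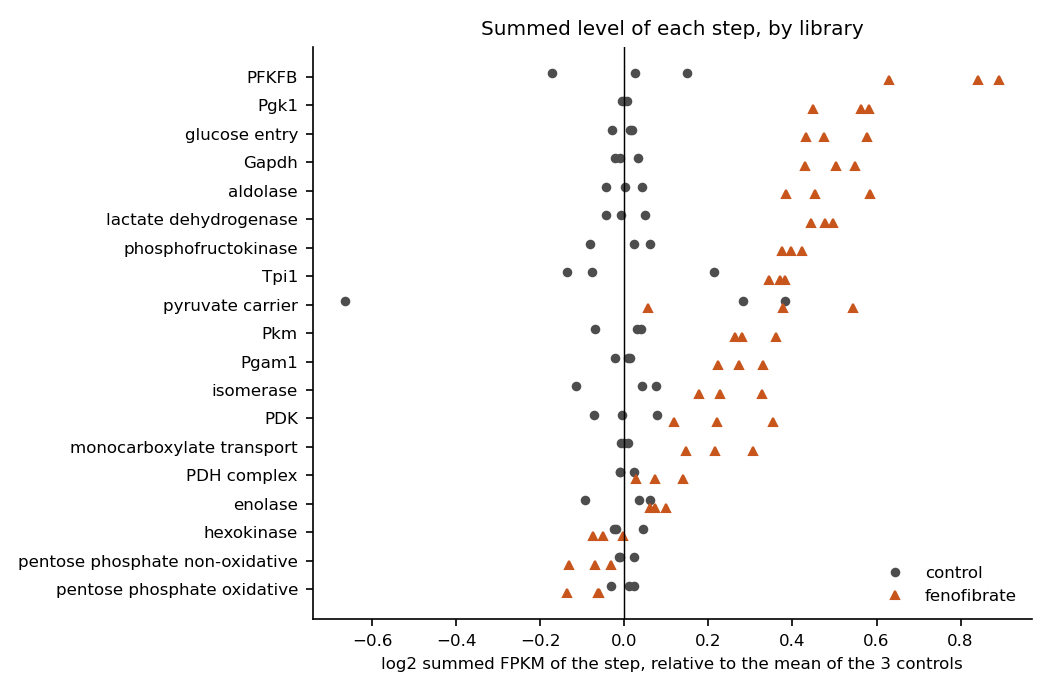
Log2 of the summed FPKM of each of 19 steps in the 3 control and 3 fenofibrate libraries, relative to the control mean. In 14 steps every treated library lies above every control, in both pentose phosphate arms every one lies below (though not once FPKM is rescaled by TMM, when both arms overlap), and hexokinase, enolase and the pyruvate carrier overlap.

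Of the 19 steps, 16 had groups that did not overlap in summed FPKM, each with an exact permutation p of 0.1 (0.119 after adjustment over the steps). Among all single genes tested, 53.3% had groups apart on normalised CPM, and no share was computed for other sums. Gpi1, Tpi1, Gapdh, Pgk1, Pgam1 and Pkm are each a step of their own, so the count partly repeats the gene results. Of the 16 steps, 14 were higher and 2, the pentose phosphate arms, lower. With FPKM rescaled by TMM, the scaling of the gene tests, 15 steps lay apart, all higher, enolase among them, and both pentose phosphate arms overlapped. The PFKFB step differed most, at 2.04 to 2.55 FPKM in control and 3.56 to 4.27 FPKM with fenofibrate, 1.73-fold. Summed FPKM was 1.44-fold higher for Pgk1, 1.41-fold for glucose entry (Slc2a1 and Slc2a3) and 1.41-fold for Gapdh. It was 1.39-fold higher for aldolase, 1.39-fold for lactate dehydrogenase and 1.32-fold for phosphofructokinase. The log2 difference was -0.09 for the oxidative and -0.08 for the non-oxidative arm of the pentose phosphate pathway, and -0.03 and -0.02 with FPKM rescaled by TMM. After that rescaling the oxidative arm summed to 38.4 to 39.8 FPKM in control and 37.0 to 39.3 FPKM with fenofibrate, and the non-oxidative arm to 59.2 to 61.1 and 56.9 to 60.7 FPKM.

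A further 91 genes of sugar metabolism and its regulators were read from the same fit, of which 67 passed the filter. Of these, 21 rose, 9 fell and 37 were not called (31.3% higher and 13.4% lower, median log2 fold change 0.12). Txnip, whose product restrains glucose uptake, was counted 617, 566 and 559 times in control and 110, 99 and 142 times with fenofibrate, 4.94-fold lower (adjusted p = 2.40e-05). The transporter gene Slc2a6 was counted 197, 184 and 199 times in control and 82, 77 and 102 times with fenofibrate, 2.21-fold lower (adjusted p = 0.000442). Slc2a13, a myo-inositol transporter gene, was counted 38, 29 and 33 times in control and 73, 49 and 69 times with fenofibrate, and rose 1.92-fold (adjusted p = 0.0137). Pygl, the liver-type glycogen phosphorylase gene, was counted 53, 47 and 47 times in control and 100, 126 and 106 times with fenofibrate, and rose 2.27-fold (adjusted p = 0.000750).

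Among regulators, Epas1, which encodes HIF-2α, was counted 80, 95 and 80 times in control and 227, 158 and 179 times with fenofibrate, and rose 2.23-fold (adjusted p = 0.00200). Hif1a, the gene of HIF-1α, rose 1.22-fold (adjusted p = 0.000724). Myc rose 1.15-fold (adjusted p = 0.0272), a call lost in 10 of 14 alternative settings (adjusted p 0.0546 to 0.103), among them leaving out control replicate 1, 2 or 3 and leaving out fenofibrate replicate 1 or 3. Me1, the gene of the cytosolic NADPH-forming malic enzyme, had 948, 989 and 973 counts in control and 1805, 1040 and 1957 with fenofibrate, so that fenofibrate replicate 2 lay close to control. Its 1.66-fold rise (adjusted p = 0.0284) was lost in 8 of 14 alternative settings (adjusted p 0.0655 to 0.0928), among them leaving out control replicate 1, 2 or 3 and leaving out fenofibrate replicate 1 or 3. Gfpt2, which starts hexosamine synthesis, was counted 41, 60 and 57 times in control and 74, 97 and 70 times with fenofibrate, and rose 1.53-fold (adjusted p = 0.0448), a call lost in 12 of 14 alternative settings (adjusted p 0.0515 to 0.135), among them leaving out control replicate 1, 2 or 3 and leaving out fenofibrate replicate 1 or 2.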

How the data were processed

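Gene expression was measured by RNA sequencing in 3 control and 3 fenofibrate-treated libraries. The deposited table gives whole-number counts per gene, not normalised by the authors, and FPKM values. The FPKM deposited by the authors equalled count per library total times 1 factor per gene, within 0.1% for all 11917 genes checked. HISAT2 2.0.4, StringTie 1.3.0 and GRCm39 are named in the submitters' processing notes, without their roles. The counter, annotation and strand setting are not given in the sources used here. Of the gene IDs 99.8% were in GENCODE M21 (GRCm38), and 98.7% of those had the same start and end.

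Counts were tested with edgeR 4.0.16 in R 4.3.3 (TMM scaling, filterByExpr, quasi-likelihood test, Benjamini-Hochberg over 13629 genes), after tests on simulated data. Single ratios and sums of FPKM were tested by exact permutation with scipy 1.17.1. Alternatives were DESeq2 1.42.0, other scalings, no filter, limma 3.58.1 on log2(FPKM + 0.5) and log2(FPKM + 0.1), a replicate block and leaving out each library. Near-identical copies were found with BLAST 2.17.0. Of the 38 genes, counts per library are printed for those that were called and changed 1.5-fold or more, fell, or share a step with paralogs, and for some others. From the wider list, genes called with a change of 1.5-fold or more are named, plus Hif1a, Myc, Txnip and Bsg. Pdp1, Pdpr and Slc16a7 are given beside related genes, and the glycogen genes were added after their values were seen. The genes, lists and tests were chosen with earlier results of these data known. A second row with the symbol Aldoa was not used.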

Additional observations from a re-analysis of the deposited data

How the results depend on the processing

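The count of the 38 genes called higher, 24 in the main test, was 23 with DESeq2, 21 with library totals alone, 24 with upper quartile scaling, 23 without a filter, 21 with limma on FPKM at either pseudocount and 25 with copies added. Leaving out each library in turn gave 20 to 22 higher and 3 to 4 lower calls, 14 to 21 higher and 8 to 11 lower calls in the wider list, 11 to 12 paralog pairs apart and 16 to 17 steps apart. All these counts stayed within 1.5 times the main ones. The report gives each call of the 38 genes that was lost or gained. In the wider list, over 67 genes and 14 alternatives, a call was lost 62 times in 8 genes and gained 18 times in 8 genes. Steps apart numbered 15 with TMM rescaling and 18 with summed CPM. Deviations of same-numbered libraries had correlations of 0.03, 0.01 and -0.00. These show no signal shared by replicate number, but they cannot settle whether same-numbered samples were handled together. With a replicate block 23 members were called higher and 3 lower, the call of Hk2 being lost (edgeR adjusted p = 0.0610). Counting error weighs most on members with few counts, such as Pfkfb4 and Pdk2 (SE of the log2 fold change 0.25 and 0.16). The largest SE among the 38 genes, 0.39, was that of Mpc1, which had more counts. How far depth limits the precision of each gene was not tested. The log2 difference of summed FPKM for hexokinase, -0.04 with overlapping groups, was 0.01 for the hexokinase step with rescaling by TMM. With limma on log2(FPKM + 0.5) the log2 fold change was 0.23 for Pfkfb2, 0.36 for Eno2 and 0.37 for Pdk2, against 0.37, 0.61 and 0.60 in the main test. That setting changes both the pseudocount and the scaling, and the cause was not tested.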

Other observations

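Genes of glycogen handling, grouped after their values were seen, included several that were higher with fenofibrate (edgeR's quasi-likelihood test). Besides Pygl, the gene of the glycogen primer glycogenin, Gyg, was counted 3101, 3172 and 3068 times in control and 4293, 4839 and 4392 times with fenofibrate and rose 1.46-fold (adjusted p = 0.000169). The branching enzyme gene Gbe1 rose 1.32-fold (adjusted p = 0.00698). Pgm1, which links glucose 6-phosphate to glycogen, rose 1.36-fold (adjusted p = 0.000220), and Ugp2, which makes UDP-glucose, rose 1.17-fold (adjusted p = 0.00177). The glycogen synthase gene Gys1 had 808, 809 and 760 counts in control and 723, 753 and 756 with fenofibrate (log2 fold change -0.08, adjusted p = 0.257). Pygb, the brain-type phosphorylase gene, was counted 2100, 2149 and 2097 times in control and 1962, 2131 and 2055 times with fenofibrate (log2 fold change -0.04, adjusted p = 0.499).

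The second gene ID with the symbol Aldoa held 20, 10 and 14 counts in control and 8, 6 and 5 with fenofibrate.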
